A study of Caenorhabditis elegans with 2 samples.

Results

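SOX-4 is a Sox-family transcription factor, a protein that binds DNA through an HMG-box domain. ChIP-seq of tagged SOX-4 in whole Caenorhabditis elegans larvae gave an optimal list of 1497 regions, and 899 further regions below it recurred in both replicates. These 899, called members here, were chosen on signal, the authors' own value for each region. They held the ranks below 1497 and down to 5000 in the list called on both replicates together (the pooled list), and each overlapped by at least 1 bp a region among the 5000 strongest in each replicate's own list. They were 899 of the 3503 pooled regions of those ranks and of the 30000 pooled regions in all. The other 2604 regions of those ranks, without support in both replicates, are called unsupported, and they and the optimal list are the groups set beside the members.

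All samples were first-stage (L1) hermaphrodite larvae of strain OP517 (unc-119(tm4063) III; wgIs517), hatched without food after bleaching and taken 6 hours after synchronization. Every animal carried a SOX-4 transgene whose product bears GFP and FLAG at its C terminus, and sonicated chromatin was precipitated through the GFP. There was 1 group, with 2 biological replicates. No untagged animals were analysed here, so binding of SOX-4 and signal that any such precipitation gives cannot be told apart, and the animals were not sorted by tissue. ChIP measures no expression, so tissue markers could not be checked. Read depth is unknown, and intervals below are exact (Clopper-Pearson) 95% intervals for the counting of regions only.

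Sox proteins bind the minor groove of short A/T-rich sites with the core ACAAT or ACAAAG and bend the DNA there, usually beside partner factors, and they act in cell fate choices in the nervous system and other tissues of many animals. The optimal list was made with the irreproducible discovery rate (IDR), a comparison of ranks between replicates. Here it equalled the 1497 strongest regions of the pooled list by signal. A place in it thus does not show that a single region ranked alike in both replicates. Members are regions that the lower limit of this list left out although both replicates held them.

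The following sequences show 50 bases on each side of the summit of the strongest members, so that the bases behind the promoter and motif results can be read. They come from the RefSeq copy of WBcel235 (ce11), plus strand, 5′ to 3′. Capitals mark matches on either strand to any of 6 motifs: the Sox-type cores ACAAT and ACAAAG, the repeat GAGAGA, the E-box CACGTG, the T block TTTTTTT and GGTTCGA, the core of the B box inside tRNA genes. The reverse strand of GAGAGA reads TCTCTC. The first 3 are the strongest members in promoter windows of protein-coding genes, at C14A11.2 (chrX:2802928-2803028), lin-36 (chrIII:8021075-8021175) and the neuropeptide gene nlp-3 (chrX:13178539-13178639).
C14A11.2 promoter: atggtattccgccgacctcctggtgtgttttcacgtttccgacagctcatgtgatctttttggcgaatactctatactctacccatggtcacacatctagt
lin-36 promoter: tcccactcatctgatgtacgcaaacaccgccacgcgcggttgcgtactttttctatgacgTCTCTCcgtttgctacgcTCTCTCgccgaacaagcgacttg
nlp-3 promoter: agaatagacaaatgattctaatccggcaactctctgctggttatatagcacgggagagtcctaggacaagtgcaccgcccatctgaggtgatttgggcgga

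The next pair are the strongest members at tRNA genes, C27A2.t1 (chrII:5057496-5057596) and T21B4.t1 (chrII:12494703-12494803), both annotated as isoleucine tRNAs. The last pair are the strongest outside all promoter windows, both intergenic, with ogdh-1 (chrIV:4705346-4705446) and C48A7.16 (chrIV:7402190-7402290) as the nearest coding 5′ ends.
C27A2.t1: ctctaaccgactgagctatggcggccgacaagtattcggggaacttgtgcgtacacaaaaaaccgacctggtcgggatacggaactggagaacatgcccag
T21B4.t1: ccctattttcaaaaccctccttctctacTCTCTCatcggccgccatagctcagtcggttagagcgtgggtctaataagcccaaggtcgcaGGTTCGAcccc
near ogdh-1: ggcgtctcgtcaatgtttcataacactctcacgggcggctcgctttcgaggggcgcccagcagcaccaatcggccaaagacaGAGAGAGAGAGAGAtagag
near C48A7.16: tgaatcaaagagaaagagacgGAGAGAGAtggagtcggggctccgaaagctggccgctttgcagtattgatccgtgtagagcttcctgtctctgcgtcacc

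None of the 7 windows held either Sox-type core, and 4 held GAGAGA on 1 strand or the other. The B box core was in the T21B4.t1 window, whose summit lay 12 bp inside the gene. In the C27A2.t1 window, whose summit lay 26 bp upstream, it was not found. That window covers only the start of the gene, so it cannot show whether the gene holds a B box. A match describes these letters only and is no evidence of binding by a factor.

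Support in both replicates fell steeply with pooled rank. Both replicates held 99.4% of the regions of ranks 1 to 500 and 90.1% of the last 497 of the optimal list. Directly below the optimal list, 359 of 503 regions down to rank 2000 (71.4%, 67.2 to 75.3) were members. The share was 46.4% in the next 500 ranks and 24.6% in the 500 after those. It was 6.40% (32 of 500) in the last 500 ranks. Over all 3503 regions of these ranks, members were 25.7% of regions, 952 regions were held by replicate 1 alone, 1114 by replicate 2 alone and 538 by neither. Signal in the pooled list combines both replicates, so this fall is set in part by the choice of members and was not tested. In the optimal list 1438 of 1497 regions (96.1%) had the same support.

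**Figure D1:**
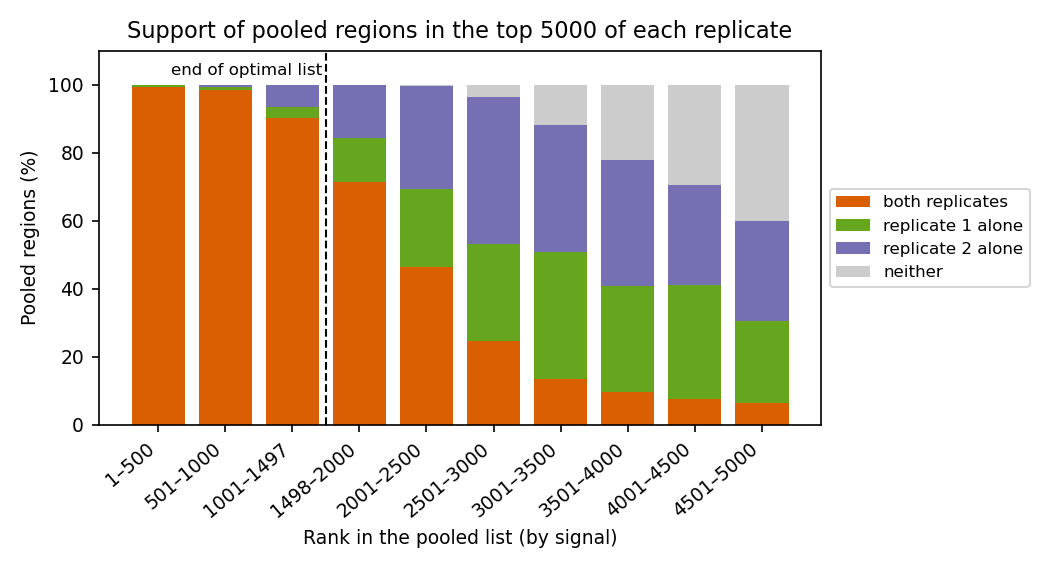
Share of pooled regions (%, vertical axis) held by the 5000 strongest regions of both replicates, of either alone or of neither, by pooled rank (horizontal axis); the dashed line marks the end of the optimal list. Support in both replicates passes from 90.1% just above the line to 71.4% just below it and to 6.40% at the lowest ranks.

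Member signal ran from 27.9 to 51.3 with a median of 41.7, beside a median of 76.2 in the optimal list and 32.0 in unsupported regions. The authors' −log10 q-value ran from 0.596 to 2.34 in members, with a median of 1.88. At the upper limit, the last optimal region had a signal of 51.3302 and the first member 51.3151, so the limit separates regions of nearly equal signal. The region of rank 5000 had 27.889 and the next had 27.8865, and the last member, at rank 4992 in an exon of nhr-56, had 27.9099. At the replicate limit, the member in the windows of F09G2.2 and attf-2 ranked 5000 in replicate 1 with a signal of 17.2616, and the unsupported region in an intron near spp-22 was next in that replicate with 17.2611. Median signal of members was 23.3 in replicate 1 and 22.4 in replicate 2.

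Members were of 2 kinds by their surroundings. Of the 899, 110 (12.2%) overlapped an optimal region, with their summits 199 to 282 bp (median 204) from its summit, and 789 lay apart. Among unsupported regions 2 overlapped an optimal region. The replicate regions of these 110 members were strong: median replicate signal was 40.9 and 40.1 in replicates 1 and 2, although their pooled median was 35.8. The optimal regions they overlapped had a median pooled signal of 77.3. For 111 members support came only through a replicate region that also overlapped an optimal region. In the members apart, median replicate signal was 22.5 and 21.5, and median pooled signal 42.3.

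The same split shows in the ranks. Of the 86 members that ranked in the top 1497 of both replicates, 77 overlapped an optimal region and 9 did not. The 10 members with the best ranks in both replicates were all of the overlapping kind. The first of these lay in an intron of jun-1, the worm Jun transcription factor gene, with a pooled signal of 35.02 and replicate signals of 117.8 and 127.8. The member in an intron of pqn-41 had a pooled signal of 45.5 and replicate signals of 117.8 and 119.1. Both had replicate values far above their pooled ones, and the summits of the optimal regions they overlap lay 201 and 206 bp from theirs. In each replicate, 109 members were supported only through a region that also overlapped an optimal region. Replicate values and ranks of overlapping members can therefore be those of a region shared with the optimal region, and are not a measure of the member alone.

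Further members of this kind stood at genes with varied roles. The member upstream of mog-4, an RNA helicase gene of germline sex determination, had a pooled signal of 45.6 and had replicate signals of 97.4 and 102.8. That upstream of the nuclear receptor gene nhr-48 had 41.1 and ranked 159 and 178, and that upstream of eel-1, a HECT ubiquitin ligase gene, had 42.8 and ranked 206 and 77. The member at the tRNA gene R04A9.t1 had 39.0 and ranked 137 and 154. Members near F56C3.1, in an intron of unk-1 and near F53E10.5 ranked no lower than 199 in either replicate, and another lay at chemoreceptor genes.

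The best ranked members apart from optimal regions had ranks near 1000. The member at chrX:5121512-5121907, upstream of the noncoding gene C31H2.10, had a pooled signal of 49.7 and ranked 1081 and 761. A neighbouring member, at chrX:5121715-5122110, had 30.1 and the same 2 replicate regions. Adjacent pooled regions sharing their replicate regions were common: 194 of 899 members, 86 of them apart from optimal regions, had both replicate regions in common with another pooled region of ranks 1 to 5000. These are not independent observations. The member 114 bp upstream of npp-20, the worm Sec13 nucleoporin gene, had 49.0 with replicate signals of 30.1 and 29.2, and that 137 bp upstream of R02D3.8 had 50.7 with 27.8 and 31.9.

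**Figure D2:**
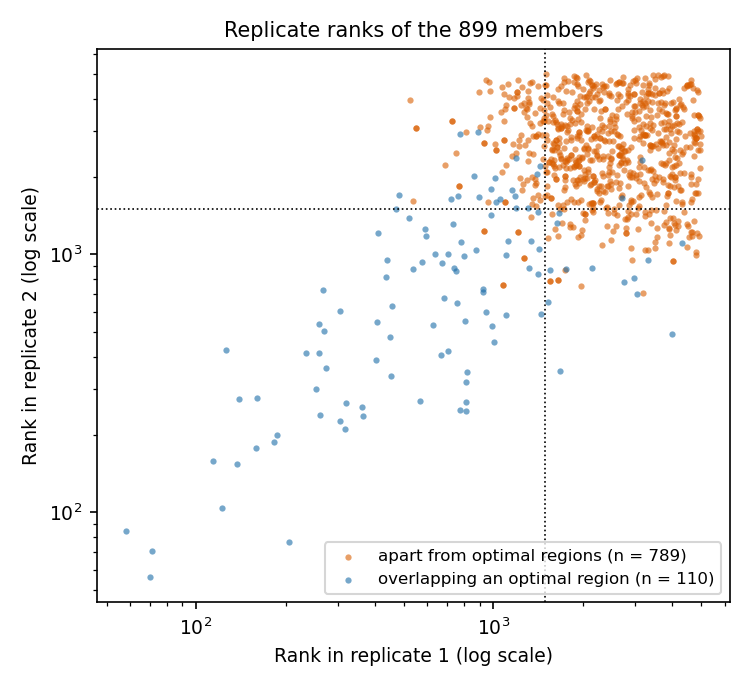
Rank of each of the 899 members in replicate 1 (horizontal axis) and replicate 2 (vertical axis), both on log scales; dotted lines mark rank 1497. The members overlapping an optimal region (blue, n = 110) fill the lower left, and 9 of the 789 members apart (orange) lie within the top 1497 of both replicates.

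The strongest members lay at promoters of genes of several kinds. Directly below the optimal list, the microRNA gene mir-8192, which lies inside flcn-1 (the worm folliculin gene), had a pooled signal of 51.3 and replicate signals of 17.9 and 33.2. C14A11.2 had 51.3 with 35.8 and 17.3. lin-36, a synthetic multivulva gene that acts against vulval fate, had 51.3 with 17.6 and 31.0. In these 3 members the replicates were far apart, and which replicate was higher differed among them. The nlp-3 member had 51.2 with closer replicate values of 28.3 and 26.5. C27A2.t1 had 51.2 with 22.6 and 28.5.

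The remaining members among the 10 strongest continued this mixture. The summit at tbc-18, a Rab GTPase-activating protein gene, lay 12 bp inside the gene, with 51.1 pooled and 17.4 and 31.3 in the replicates. A member in an intron of hda-4, a class II histone deacetylase gene, had 51.1 with 24.4 and 28.6. The intergenic member nearest to ogdh-1, an enzyme gene of the citric acid cycle, had 51.1 with 21.8 and 25.6, and that nearest to C48A7.16 had 51.1 with 25.2 and 30.5. A window shared by Y71G12B.10 and mppa-1, a mitochondrial processing peptidase gene, held a member of 51.1 with 18.5 and 29.9. Replicate 2 was the higher in 8 of these 10, whereas over all members 483 of 899 (53.7%) ranked better in replicate 1.

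The weakest members were also at varied places. At rank 4948 the summit lay 3 bp inside gpd-3, a glyceraldehyde-3-phosphate dehydrogenase gene, with a signal of 28.0, and 213 bp from an optimal summit. At rank 4945 it lay in an intron of gly-9 with 28.0.

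The share of members at gene 5′ ends was higher than that of unsupported regions over all ranks together, and lower than that of the optimal list. A promoter window reached from 1000 bp upstream to 200 bp downstream of the 5′ end of any gene but pseudogenes. It held 493 of 899 member summits (54.8%, 51.5 to 58.1), 1206 of 2604 unsupported summits (46.3%, 44.4 to 48.3) and 1005 of 1497 optimal summits (67.1%, 64.7 to 69.5). Against unsupported regions the odds ratio was 1.41 (Fisher's exact test, two-sided, adjusted p = 7.2e-05), and against the optimal list 0.594 (adjusted exact p = 1.3e-08). All location p-values were adjusted over 6 locations by the Benjamini-Hochberg method, with a threshold of 0.05. Regions are not biological replicates and some neighbours share a source, so the p-values here say nothing of variation between animals.

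The difference from unsupported regions did not pass the threshold at like pooled rank. Members lie higher in the list, with a median rank of 2162 against 3589, and promoter share moves with rank. Within strata of about 500 ranks the odds ratio was 1.09 (Mantel-Haenszel chi-square test, 95% interval 0.914 to 1.31, adjusted p = 0.63). Down to rank 2000, promoter windows held 61.6% of 359 members and 52.8% of 144 unsupported regions. In the next 500 ranks the order was the opposite, with 51.3% of 232 members and 60.1% of 268 unsupported regions. At ranks past 3000 the shares were 49.7% of 185 and 43.7% of 1815. The intervals of members and unsupported regions overlapped in each of the 4 rank ranges plotted.

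**Figure D3:**
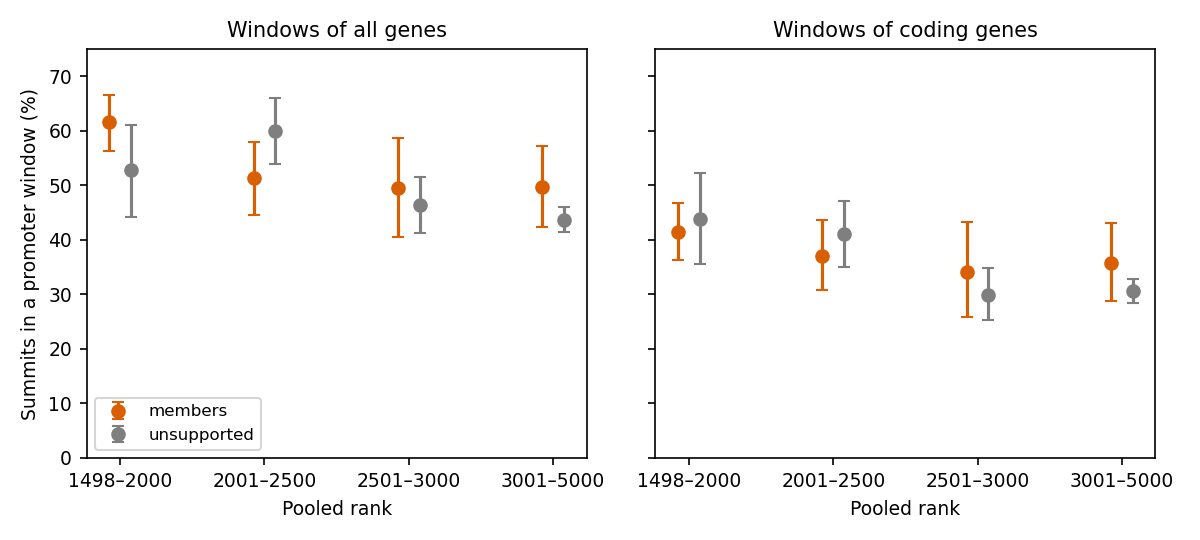
Share of summits in a promoter window (%, vertical axis) by pooled rank (horizontal axis) for members and unsupported regions, with windows of all genes (left) and of coding genes alone (right); bars are exact 95% intervals. Members range from 49.6% to 61.6% on the left, and which group is higher changes between the first and second rank range.

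With windows of protein-coding genes alone, members stood at 38.2% (34.97 to 41.4), unsupported regions at 32.3% and the optimal list at 54.4%. Within rank strata the odds ratio against unsupported regions was 1.05 (0.870 to 1.26), not past the threshold, and down to rank 2000 the order was the opposite, with 41.5% of members and 43.75% of unsupported regions. Windows of 2 divergent coding genes held 79 members (8.79%), 5.68% of unsupported regions and 19.2% of the optimal list. The odds ratio for such shared windows was 0.404 against the optimal list (exact p adjusted over 3 added features = 2.1e-12). These added features were picked once results were known. Against unsupported regions it was 1.599 (adjusted exact p = 0.0016), and 1.13 (0.811 to 1.58) within rank strata (Mantel-Haenszel chi-square test, adjusted p = 0.62). Windows of noncoding genes alone held 16.7% of members, 14.02% of unsupported regions and 12.8% of optimal regions. Member summits lay a median of 1338 bp from the closest 5′ end of a coding gene, beside 1495 bp in unsupported and 562 bp in optimal regions.

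Outside promoter windows, members were in introns, intergenic sequence and, more often than optimal regions, exons. Coding exons or 5′ UTRs held 42 members (4.67%) against 1.54% of optimal regions (odds ratio 3.14, adjusted exact p = 3.3e-05). Intergenic sequence held 189 members (21.02%) against 15.4% (odds ratio 1.46, adjusted exact p = 0.0011). Introns held 164 members (18.2%) against 14.7% of optimal (adjusted exact p = 0.037) and 22.8% of unsupported regions (odds ratio 0.755, adjusted exact p = 0.012). Bodies of noncoding genes, pseudogenes among them, held 1 member, 20 unsupported and 11 optimal regions (adjusted exact p = 0.048 and 0.046). Promoter windows were assigned first and take in most short noncoding genes, so these counts depend on that order. With windows of coding genes alone, noncoding gene bodies held 16 members (1.78%), 2.23% of unsupported and 2.07% of optimal regions. Neither difference was then past the threshold (adjusted exact p = 0.58 and 0.65). The 3′ UTRs held 10 members (1.11%), 2.11% of unsupported and 0.468% of optimal regions, neither difference past the threshold (adjusted exact p = 0.093 and 0.080). No location differed from unsupported regions past the threshold within rank strata. Shares sum to a whole, so a larger promoter share lowers the others. In a further added comparison, among the 406 members outside promoter windows, exons still held 10.3% against 4.67% of 492 optimal regions (odds ratio 2.35, exact p adjusted over 5 locations = 0.0059).

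**Figure D4:**
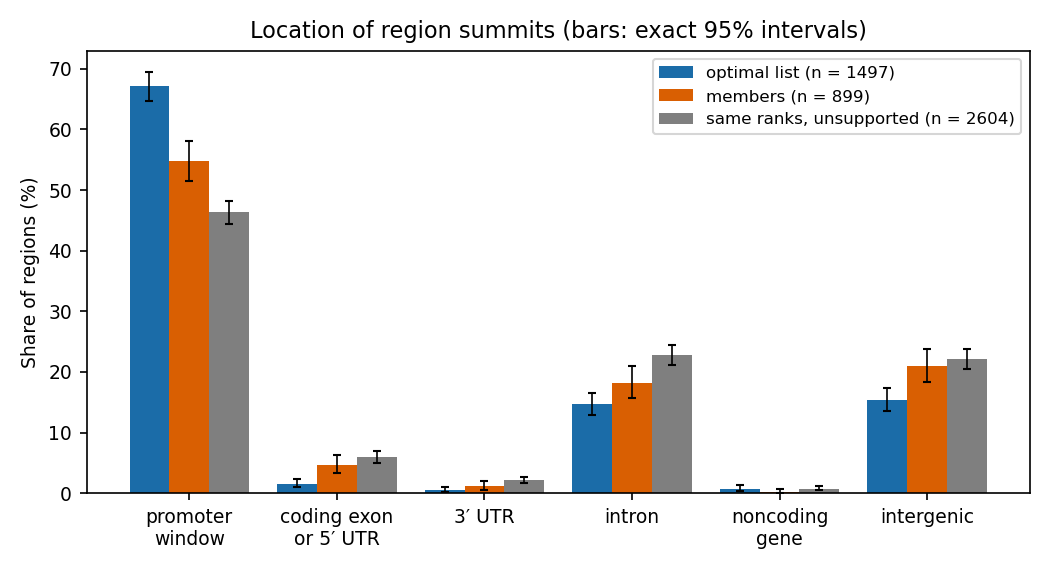
Share of summits (%, vertical axis) in 6 locations (horizontal axis) for the optimal list, the members and unsupported regions of the same ranks; bars are exact 95% intervals. The member promoter share of 54.8% lies between 67.1% and 46.3%, and the member exon share of 4.67% lies above the optimal 1.54%.

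Members lay on all 6 nuclear chromosomes, and no chromosome's share passed the threshold against either group. X held the most, 206 members (22.9%, 20.2 to 25.8), beside 20.4% of unsupported and 21.04% of optimal regions (odds ratios 1.16 and 1.12, exact p adjusted over 6 chromosomes = 0.24 and 0.89). Without replicate 1, with support from replicate 2 alone, the X odds ratio against unsupported regions was 1.26 and past the threshold. Chromosome IV held 142 members (15.8%) and 19.2% of unsupported regions (odds ratio 0.791, adjusted exact p = 0.15). On IV, 19 members and 94 unsupported regions lay in windows of piRNA genes alone, the small RNAs whose genes are clustered there. Over all chromosomes such windows held 2.56% of members, 4.15% of unsupported and 0.802% of optimal regions. Chromosomes I, II, III and V held 15.2%, 14.3%, 14.7% and 17.02% of members.

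Along the chromosomes, the central portion, the middle of 3 equal lengths, held 384 members (42.7%, 39.5 to 46.02), 36.4% of unsupported and 38.9% of optimal regions. The odds ratio against unsupported regions was 1.30 (exact p adjusted over the 3 added features = 0.0016). Within rank strata it was 1.25 (1.04 to 1.49), with a Mantel-Haenszel chi-square p of 0.053 after adjustment, just outside the threshold. On V 51.6% of members and on X 31.6% were in the central portion, the highest and lowest of the 6 chromosomes. 

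On X, the lower promoter share seen in the optimal list was not detected in members with windows of all genes. Promoter windows held 108 of 206 X members (52.4%) and 385 of 693 autosomal members (55.6%; odds ratio 0.882, Fisher's exact p = 0.47). In the optimal list the odds ratio was 0.530, and the 2 ratios differed (Breslow-Day chi-square p = 0.013). With windows of coding genes alone the X share of members was lower, at 30.6% against 40.4% (odds ratio 0.650, exact p = 0.011). That ratio also differed from the optimal 0.352 (Breslow-Day chi-square p = 0.0043). In unsupported regions the X share was lower with windows of all genes (odds ratio 0.784, Fisher's exact p = 0.015) and of coding genes (0.749, exact p = 0.0080). Members on X numbered 206 and unsupported regions on X 532, so a ratio of that size is harder to detect in members. With neither window did the ratio differ past the threshold between members and unsupported regions (Breslow-Day chi-square p = 0.53 and 0.48).

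Of the 6 motifs, GAGAGA was the one past the threshold against unsupported regions within 50 bp of the summit. It lay within 50 bp of the summit in 156 members (17.4%, 14.9 to 19.99), 10.2% of unsupported regions and 6.69% of all pooled regions. The odds ratio against unsupported regions was 1.85 (Fisher's exact test, p adjusted over 6 motifs = 2.4e-07). Within rank strata it was 1.34 (1.04 to 1.73), no longer past the threshold (Mantel-Haenszel chi-square test, adjusted p = 0.13). Within strata of GC content of the windows it was 1.37, smaller but past the threshold (Mantel-Haenszel chi-square test, adjusted p = 0.040). The optimal share was 19.4% (odds ratio 0.870, adjusted exact p = 0.57). In members GAGAGA was found in 19.1% of promoter windows and in 15.3% of summits elsewhere.

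The Sox-type cores did not differ past the threshold between members and either group. ACAAT was near 24.8% of member summits, 25.7% of unsupported, 23.2% of optimal and 28.7% of all pooled regions (odds ratios 0.954 and 1.09, adjusted exact p = 0.75 and 0.60). ACAAAG was near 4.67%, 4.88%, 4.07% and 5.00% in the same order (odds ratios 0.956 and 1.15, adjusted exact p = 0.86 and 0.64). The T block was near 18.5% of member summits and 11.2% of optimal ones (odds ratio 1.79, adjusted exact p = 6.1e-06), with 21.7% in unsupported and 26.7% in all pooled regions. Base composition moved with it: median GC content of these windows was 39.6% in members, 34.7% in unsupported and 44.6% in optimal regions. Within GC strata the T block odds ratio against the optimal list was 1.24 and not past the threshold (Mantel-Haenszel chi-square test, adjusted p = 0.28). CACGTG was near 4.34% of member summits, 2.73% of unsupported, 5.41% of optimal and 2.02% of all pooled regions, not past the threshold (adjusted exact p = 0.059 and 0.57). In members it was found in 2.43% of promoter windows and 6.65% of other summits. GGTTCGA was near 10 members (1.11%) and 0.717% of all pooled regions, and 2 of those 10 were among the 41 members in tRNA windows.

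Members added 365 protein-coding genes to those with an optimal region. A member lay in the promoter window of 422 coding genes, which is 5.59% of the 7543 coding genes with any pooled region there. An optimal region lay at 1133 of them (15.02%), and 57 genes had both. Leaving out members that overlap an optimal region left 369 coding genes, 362 of them with no optimal region. Among noncoding genes other than piRNA genes, 266 of 3621 with a pooled region (7.35%) had a member and 462 (12.8%) an optimal region. The lists that follow were counted beside these backgrounds, without a test, since a gene with an optimal region has less room for a member, and signal chose both. The median strongest signal was 21.5 over all coding genes with a pooled region.

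Of the translation genes, cytosolic ribosomal protein genes had a member share above the 5.59% of all coding genes, beside many more optimal regions. Of 73 cytosolic ribosomal protein genes with a pooled region, 8 (10.96%) had a member and 38 (52.1%) an optimal region, none both, and the median strongest signal was 53.5. The member 256 bp upstream of rps-17 had a signal of 50.7 with replicate values of 27.5 and 18.7, that at rpl-23 had 48.3 with 22.9 and 25.995, and that at rps-5 had 46.1 with 31.8 and 17.1. One member served both fau-1 and rpl-39 (43.6). All 8 genes had their summit 202 to 349 bp upstream, and none of these members overlapped an optimal region. With mrps-25 (50.1) and mrpl-40 (46.01), 2 of 42 mitochondrial ribosomal protein genes had a member. The cap-binding factor gene ife-2 (45.96) and the initiation factor gene eif-3.I (37.8) were 2 of 28 translation factor genes (7.14%), and fars-1 (46.7), for phenylalanyl-tRNA synthetase, was 1 of 18 synthetase genes. Counts this small do not set mitochondrial ribosomal protein, translation factor or synthetase genes apart from the 5.59% of all coding genes.

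Transcription and chromatin genes gave smaller counts. Of 50 chromatin genes 5 had a member. Of the Polycomb-type repressor genes, mes-2, the H3K27 methyltransferase gene, had a signal of 50.96 with replicate values of 28.3 and 23.3, and its partner mes-6 had 39.4 with 23.7 and 28.2. The H3K9 methyltransferase gene set-25 had 35.3. The other 2, swsn-7 (32.0) and set-17 (29.0), had members that overlapped an optimal region. Of 27 genes for RNA polymerase II, TFIID and Mediator, rpb-3 (48.9) and taf-6.2 (41.2) had a member, and 12 had an optimal region. Splicing factor genes with a member were rnp-6 (47.6) and prp-21 (39.1), 2 of 28. Of 16 histone genes 3 had one: his-24, a linker histone gene, with 47.9, and his-35 and his-41, which share a member of 29.9.

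Proteasome and DNA replication genes had the highest member shares among the coding lists with 20 or more genes that had a pooled region. All coding genes stood at 5.59%, and the smaller histone list at 18.75% (3 of 16). The counts in these lists are small, and their difference from 5.59% was not tested. Of 24 proteasome genes, 5 (20.8%) had a member and 5 an optimal region. The core particle genes pbs-7 (50.4), pas-3 (50.04) and pas-4 (48.9) were joined by the ATPase gene rpt-6 (43.3) and by rpn-11 (30.6), a deubiquitinase gene whose member overlapped an optimal region. The pas-4 member was the same region as that of rpb-3, between the pair of genes. Of 36 DNA replication and cell cycle genes 5 (13.9%) had a member: the replicative helicase genes mcm-4 (45.5) and mcm-3 (29.9), the GINS gene psf-1 (45.2), the DNA polymerase alpha subunit gene div-1 (44.2) and the transcriptional kinase gene cdk-12 (33.6). In this list 7 genes had an optimal region and none had both.

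Nuclear pore and transport genes with a member were npp-20 (49.0), the importin alpha gene ima-1 (47.4) and npp-12 (32.9), 3 of 26. Respiratory chain genes were 3 of 32, with the complex III genes ucr-2.1 (49.7) and ucr-1 (41.7) and the succinate dehydrogenase gene sdha-1 (43.5). The summit of the sdha-1 member lay 198 bp upstream of sdha-1 and 15 bp upstream of the snoRNA gene D2021.6. At ucr-1 the replicates ranked the region 1508 and 4985, the latter close to the limit of 5000. The proton pump gene vha-8 (49.9) and lgg-1 (45.3), the worm Atg8 of autophagosomes, were 2 of 30. No member lay at any of 41 heat shock and chaperone genes with a pooled region, and 20 of these had an optimal region. Beside the 5.59% of all coding genes, a list of 41 is too small to read this as a lack of members.

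**Figure D5:**
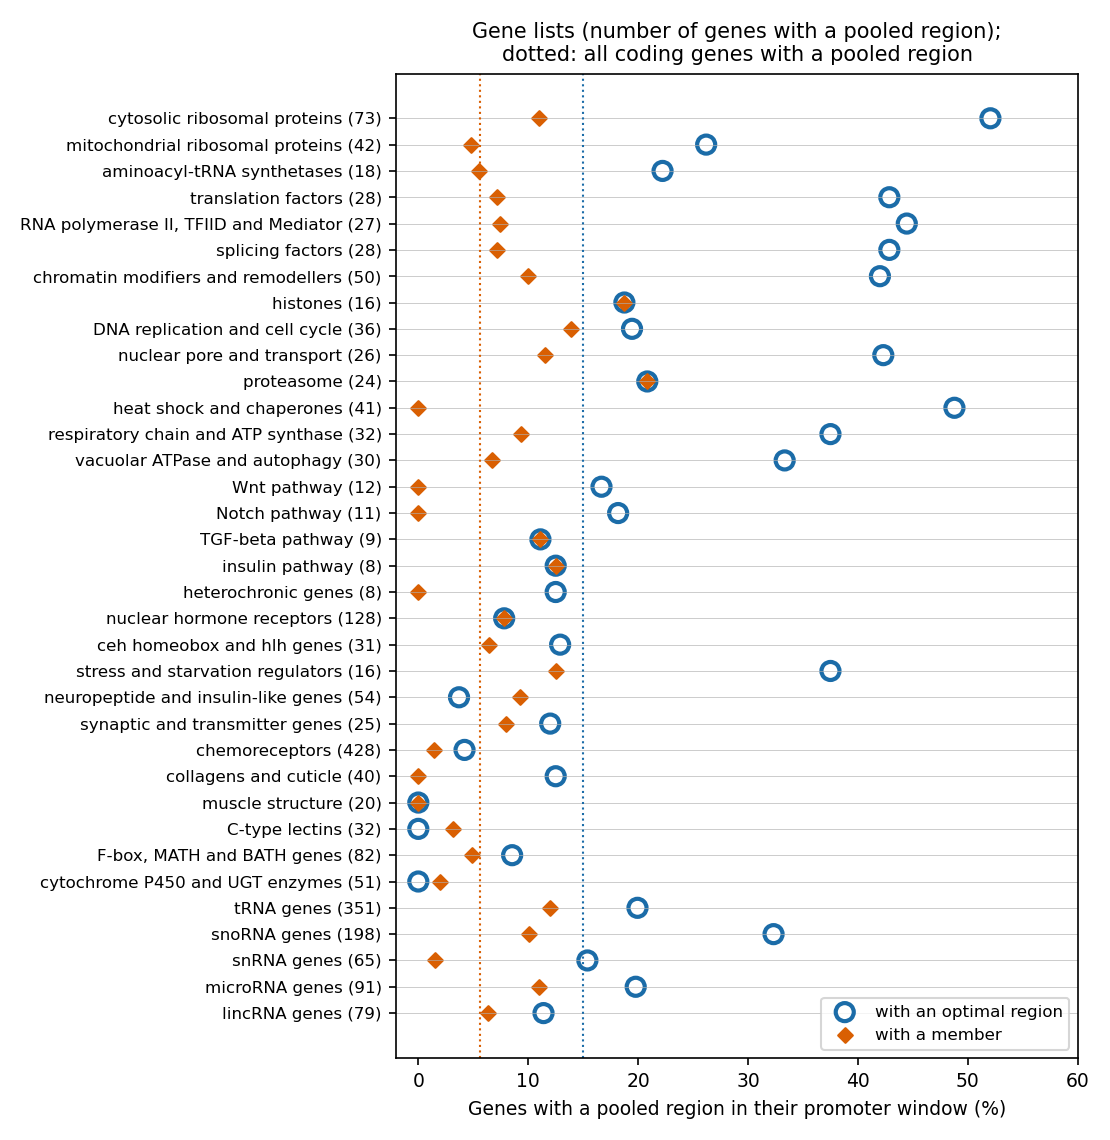
Share of genes (%, horizontal axis) with a member (diamonds) or an optimal region (circles) in the promoter window, by list (vertical axis, number of genes with a pooled region in brackets; lists of fewer than 8 and piRNA genes left out); dotted lines mark 5.59% and 15.02% of all coding genes. Cytosolic ribosomal protein genes reach 52.1% for optimal regions and 10.96% for members. Neuropeptide and insulin-like genes stand at 9.26% for members (5 of 54) and 3.70% for optimal regions (2 of 54), both small counts.

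Of 54 neuropeptide and insulin-like genes with a pooled region, 5 (9.26%) had a member and 2 (3.70%) an optimal region. Over all coding genes these shares were 5.59% and 15.02%. A count of 5 is too small to set this list apart from the 5.59%. After nlp-3 came ins-35 (42.9), nlp-32 (41.7), nlp-71 (38.0) and ins-24 (34.6), all secreted peptide genes. The summits at the other 4 lay 577 to 946 bp upstream, farther than the 142 bp at nlp-3. Synaptic genes with a member were snt-4 (38.7), a synaptotagmin gene, and ric-19 (30.9), which acts in dense core vesicles, 2 of 25. Chemoreceptor genes had a member in 6 of 428 (1.40%) and an optimal region in 18 (4.21%). No member lay at any of 40 collagen and cuticle genes or 20 muscle structure genes with a pooled region. Of the latter none had an optimal region either. Beside the 5.59% of all coding genes, lists of 40 and 20 genes are too small to read this as a lack of members.

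Nuclear hormone receptors, a large family in worms, were the longest list of developmental regulators. Of 128 such genes 10 (7.81%, beside 5.59% of all coding genes) had a member and 10 an optimal region, 4 of them both. The 4 with both, nhr-196 (50.9), nhr-142 (45.3), nhr-48 (41.1) and nhr-255 (30.9), had members that overlapped the optimal region. The member 573 bp upstream of nhr-3 had 50.6 with replicate values of 31.7 and 21.5, and that at nhr-253 had 47.03 with 23.0 and 19.9. Of 31 ceh and hlh genes, ceh-39 (46.001), an X-linked signal of sex determination, and hlh-11 (31.6) had a member. Among 16 stress and starvation regulators these were xbp-1 (37.1), of the unfolded protein response, and daf-16 (31.4), the FOXO factor of insulin signalling that is active in starved L1 larvae. In both, the replicates were close: 21.6 and 21.7 at xbp-1, and 20.3 and 18.3 at daf-16.

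The 4 signalling lists had 8 to 12 genes with a pooled region each, too few to set their counts apart from the 5.59% of all coding genes. The TGF-beta pathway had sma-9 (38.3), a zinc finger cofactor gene of body size control, 1 of 9, and daf-16 was the 1 of 8 insulin pathway genes. No gene of the Wnt pathway (12 with a pooled region), the Notch pathway (11), the heterochronic list (8) or the Hox list (3) had one. Families that respond to the environment had members at fbxc-44 (49.2), fbxc-19 (42.6) and fbxa-24 (37.1) among 4 of 82 F-box, MATH and BATH genes. Members also lay at clec-126 (36.2) among 32 C-type lectin genes and at cyp-34A6 (36.8) among 51 cytochrome P450 and UGT genes. The clec-126 member is also counted at the tRNA genes W09G10.t2 and W09G10.t3. Its summit lay 238 bp upstream of clec-126 and 66 bp inside W09G10.t2.

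RNA genes had members above the noncoding background of 7.35% for tRNA, snoRNA and microRNA genes. Of 351 tRNA genes with a pooled region 42 (11.97%) had a member and 70 (19.9%) an optimal region. Summits at the strongest lay close to the 5′ end, 23 bp upstream at F47E1.t1 (50.1), a glutamine tRNA, beside the 2 isoleucine tRNAs printed above. On X 19 of 164 tRNA genes (11.6%) and on autosomes 23 of 187 (12.3%) had a member, whereas an optimal region was at 29.3% on X and 11.8% on autosomes. This contrast between members and optimal regions was not tested.

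Of 198 snoRNA genes 20 (10.1%) had a member, led by D1046.6 (51.02), Y17G7B.25 (48.5) and C10C6.8 (47.6), and 64 (32.3%) an optimal region. Of 65 snRNA genes 1 had a member, F32B5.9 (42.8). Of 91 microRNA genes 10 (10.99%) had a member: mir-8186.2 (43.8) and mir-793 (42.1) followed mir-8192, and mir-1821 and mir-792 shared one. Members at mir-71 and mir-90, 569 and 565 bp upstream, overlapped an optimal region. Of 79 lincRNA genes 5 had a member, with linc-44 (47.1), linc-92 (45.3) and linc-84 (44.2) the strongest, and the last pair overlapped an optimal region. Of 8082 piRNA genes with a pooled region 84 (1.04%) had a member and 78 (0.965%) an optimal region, in 38 member regions.

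At the sox-4 gene itself, on X, 4 members, 6 optimal and 5 unsupported regions lay within 20 kb. The member in an intron of sox-4 (chrX:3508493-3508888) had a signal of 42.3 with replicate values of 35.8 and 27.2. The member just past the 3′ end of sox-4, in the 3′ UTR of C12D12.1 (chrX:3504993-3505388), had 49.8 with 30.5 and 22.9. The other 2, of signal 32.6 and 28.8, were in an intron of npr-16. The transgene carries sox-4, so chromatin of the transgene and of the native gene cannot be told apart at this locus. No member lay within 20 kb of the other Sox genes sox-2, sox-3, sem-2 and egl-13, or of unc-119, the marker gene named in the genotype.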

How the data were processed

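Per the file notes, the authors called 30000 regions, background included, on either replicate and on the 2 combined, and deposited an optimal list made from these by IDR. Neither caller nor IDR threshold is named in the sources used here, and the control named in the labels was not analysed here. The deposited signal column ranked the regions and chose the members. The deposited −log10 q-value was used to describe them. Coordinates are ce11, 1-based; the ce10 lists served only to count members again.

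Replicate values of a member are those of the highest-signal region overlapping it there. Genes came from Ensembl release 115 (WBcel235), with RefSeq symbols for 44750 of 46926, and sequence from RefSeq. Windows of 44798 genes, pseudogenes left out, were used. Locations, chromosomes and motifs were compared by Fisher's exact test (two-sided, Benjamini-Hochberg adjustment), Mantel-Haenszel chi-square tests for strata and Breslow-Day chi-square tests for differences of odds ratios. The 38 gene lists were counted only. The Fisher and Mantel-Haenszel odds ratios were tested on simulated data with planted odds ratios. Region overlap and the assignment of summits to windows were checked on small made-up cases, and the other procedures were not tested in this way. The members, lists and motifs were chosen with earlier results of these data known. Named genes are those at the 10 strongest members, the 10 best ranked in both replicates, those at the rank limits, up to 3 of each list, the Sox genes and unc-119; others (the members apart with the best replicate ranks, and the fourth and later genes of a list) were named after their values were seen. Chemoreceptor genes are given by count. Mitochondrial regions numbered 13 in replicate 2 and 0 in the other lists. Python 3.11.15, numpy 2.4.6, pandas 2.3.3, scipy 1.17.1 and statsmodels 0.14.6 were used.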

Additional observations from a re-analysis of the deposited data

How the results depend on the processing

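The number of members was 899, and 419 with support from the 3000 strongest replicate regions, 1851 to 2013 with 1 replicate left out, and 913 on ce10. Coding genes with a member numbered 422, 199 with the 3000 strongest, and 769 to 875 with 1 replicate left out. The promoter odds ratio against unsupported regions (1.41) lost its call at pooled ranks down to 3000 (1.17, adjusted exact p = 0.49), within rank strata (1.09) and within rank strata with coding windows (1.05), an alternative chosen after seeing the data, as were those that left out mitochondrial regions, the surroundings of sox-4 or members overlapping an optimal region. With 1 replicate left out it was 1.21 to 1.30. Its adjusted p ranged from 1.1e-06 to 0.92 over all alternatives (Fisher's exact tests, chi-square tests in strata). The promoter odds ratio against the optimal list kept its call in every alternative run on it, at 0.504 to 0.638. X against autosomes in members (0.882) passed the threshold with coding windows (0.650), and was 0.749 to 0.858 with 1 replicate left out, past the threshold without replicate 1.

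Locations past the threshold against unsupported regions numbered 3, and 1 with the 3000 strongest and with coding windows, 0 at ranks down to 3000 and in both kinds of rank strata, and 1 to 3 with 1 replicate left out. Against the optimal list they numbered 5, and 2 with the 3000 strongest and 3 at ranks down to 3000. Motifs past the threshold against unsupported regions numbered 1, and 2 with 50% overlap, 3 without support through optimal regions or without members overlapping one, 0 within rank strata and 4 with 100 bp on each side. Against the optimal list they numbered 1, and 3 with either replicate left out and 0 with 100 bp on each side or within GC strata. Chromosomes past the threshold against unsupported regions numbered 0, and 0 to 1 with 1 replicate left out.

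Odds ratios that crossed 1 were not past the threshold in either setting. Against unsupported regions these were intergenic (1.03 at ranks down to 3000, 1.01 in rank strata, 1.05 with coding windows, 1.09 with both, 0.825 to 1.15 with 1 replicate left out), exon (1.02 in rank strata), chromosome I (0.919 against regions in neither replicate, 0.888 to 1.08 with 1 replicate left out), II (0.953 to 1.28 likewise) and V (1.015 at ranks down to 3000, 1.09 in rank strata). Motifs were ACAAT (1.14 at ranks down to 3000, 1.12 in rank strata, 1.125 in GC strata), ACAAAG (1.03 in rank strata, 1.09 with 100 bp, 0.774 to 1.19 with 1 replicate left out), TTTTTTT (1.065 at ranks down to 3000, 1.13 in rank strata, 1.19 in GC strata) and GGTTCGA (0.772 to 2.23 with 1 replicate left out). Against the optimal list these were chromosome II (1.04 with the 3000 strongest, 1.005 at ranks down to 3000, 1.002 with 50% overlap, 1.03 without support through optimal regions, 1.04 without members overlapping one), ACAAAG (0.996 with the 3000 strongest), ACAAT (0.909), GAGAGA (1.225) and GGTTCGA (1.20) in GC strata, and GGTTCGA (1.54 without X, 1.13 with 100 bp). The cause was not tested. No paired analysis was possible because the labels give 1 group. Read depth is unknown, and 2 replicates limit what recurrence shows.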
